A study of Mus musculus with 9 samples.

Results

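The genes described here encode the enzymes that make superoxide and nitric oxide on purpose: subunits of the phagocyte NADPH oxidase (Cybb, Cyba, Ncf1 and Ncf4), the related oxidase Nox4, and the nitric oxide synthases Nos1 and Nos2. They were taken by gene symbol from a table of 15228 genes, where 6 of the 7 were found. Nox4 was not analysed here. The data are RNA-seq of cells sorted as retinal ganglion cells (RGCs), the neurons whose axons form the optic nerve, from wild-type C57BL/6J mice of 6 to 8 weeks. The Ctrl group came from intact retinas. The ONC group came from retinas taken on day 3 after optic nerve crush, a mechanical injury of the axons, with an intraocular injection of 3 μL PBS. The TPEN group had the same crush and interval, with 3 μL of the membrane-permeable zinc chelator TPEN at 100 μM injected right after the injury. No injection is given for Ctrl, so crush and injection cannot be told apart in comparisons with Ctrl. Each group had 3 libraries of 19946993 to 23109754 reads. Whether different mice stand behind the 3 libraries is not given in the sources used here, so the p-values measure the spread between these libraries, which may be technical.

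The phagocyte oxidase is assembled only on demand. Its membrane core is the flavocytochrome made of the catalytic subunit gp91phox (Cybb, also called NOX2) and its partner p22phox (Cyba), which also serves other NOX enzymes. The organiser p47phox (Ncf1) and p40phox (Ncf4) wait in the cytosol and dock with a Rac GTPase when the cell is stimulated, and the enzyme then passes electrons from NADPH to oxygen to give superoxide. Nos1 is the neuronal synthase, present in some amacrine cells of the retina, and Nos2 is the inducible synthase of activated macrophages and glia. In the retina the phagocyte oxidase is best known from microglia and infiltrating macrophages.

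The labelled cell type was compared with its markers before the members were read. The 10 RGC markers found summed to 364 to 374 RPKM (reads scaled to exon length and library size) in Ctrl, 373 to 395 in ONC and 290 to 304 in TPEN. Nefl, a neurofilament gene, carried most of it at 258 ± 3.13 RPKM in Ctrl (SD, n = 3). The RGC-defining genes Rbpms and Pou4f1 stood at 0.605 ± 0.0992 and 0.571 ± 0.146 RPKM there. Both were lower in ONC (0.393 ± 0.0451 and 0.183 ± 0.117) and in TPEN (0.319 ± 0.113 and 0.241 ± 0.0234). In a limma fit to all genes, Pou4f1 differed between ONC and Ctrl by a log2 difference of -1.30 (adjusted p = 0.0108). For Rbpms the limma difference was -0.51 (adjusted p = 0.118). Slc17a6, another of the 10, went the other way (0.268 ± 0.0728 in Ctrl and 0.435 ± 0.0768 in ONC). The means of Nefl, Nefm, Sncg and Thy1 were also higher in ONC, and those of Nefh, Isl1 and Tubb3 lower. Limma gave 0.28 for Nefm (adjusted p = 0.00111), 0.23 for Sncg (adjusted p = 0.0458) and -0.34 for Nefh (adjusted p = 0.000366). The 5 rod markers summed to 14472 to 17400 RPKM over the 9 libraries, so transcripts of other retinal cells were abundant in material labelled as RGCs. The 14 microglia and macrophage markers summed to 4.84 to 5.71 RPKM in Ctrl, 62.7 to 66.0 in ONC and 27.9 to 28.6 in TPEN, and this order is that of most members below. In such bulk libraries, fewer cells of a type and less RNA per cell cannot be told apart.

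The 3 oxidase genes with the highest levels after injury were all higher in ONC than in Ctrl and lower in TPEN than in ONC. Their promoters are shown here. Each runs from 250 bases before the RefSeq start to 30 after it on the gene's strand (GRCm38.p6), and capitals mark every match to a searched motif. The RefSeq start of Cybb lies inside the span that the deposited table gives the gene.
Cybb, chrX:9469295-9469574, minus strand: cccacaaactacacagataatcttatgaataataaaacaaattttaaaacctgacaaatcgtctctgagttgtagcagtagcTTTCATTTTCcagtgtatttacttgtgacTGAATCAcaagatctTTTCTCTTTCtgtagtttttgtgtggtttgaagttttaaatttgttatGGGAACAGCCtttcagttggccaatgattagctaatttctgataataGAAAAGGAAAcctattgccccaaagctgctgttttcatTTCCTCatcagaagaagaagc
Cyba, chr8:122432911-122433190, minus strand: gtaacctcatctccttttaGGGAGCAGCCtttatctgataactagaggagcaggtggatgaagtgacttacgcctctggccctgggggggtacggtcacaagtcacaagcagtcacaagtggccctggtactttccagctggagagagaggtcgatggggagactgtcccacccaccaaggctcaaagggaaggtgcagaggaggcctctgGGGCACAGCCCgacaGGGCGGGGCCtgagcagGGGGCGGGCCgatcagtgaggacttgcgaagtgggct
Ncf1, chr5:134229596-134229875, minus strand: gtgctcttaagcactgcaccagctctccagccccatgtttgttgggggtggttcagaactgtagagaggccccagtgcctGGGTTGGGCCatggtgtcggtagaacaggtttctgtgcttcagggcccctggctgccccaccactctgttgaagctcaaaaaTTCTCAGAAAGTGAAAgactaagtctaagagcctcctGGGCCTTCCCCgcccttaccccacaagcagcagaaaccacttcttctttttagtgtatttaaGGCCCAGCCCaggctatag
The letters searched on both strands were GAAA and GAAA with any 2 bases between them (interferon regulatory factors, IRF), GGG and CC with any 5 bases between them (NF-kB), TGANTCA (AP-1), TTCNNNGAA (STAT), GAGGAAGT (PU.1) and, added after the promoters had been seen, its core GAGGAA. The IRF motif occurred 3 times in Cybb, once in Ncf1 and not in Cyba, and 3.28% of 32851 mouse promoters of this length held it. The NF-kB motif occurred in all 3, once in Cybb, 5 times in Cyba and 4 times in Ncf1, some of them overlapping, against 48.9% of all promoters. Cybb also held TGANTCA (7.46% of promoters) and GAGGAA (26.0%), and Ncf1 held TTCNNNGAA (7.83%), which overlaps its IRF match. None of the 3 held GAGGAAGT (2.82%). A match describes letters only and is not evidence of binding.

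Transcripts for the membrane core were higher in ONC than in Ctrl and lower in TPEN than in ONC. Cybb lies on GRCm38 chrX:9435252-9487771 (minus strand) and is protein coding. It was 0.138, 0.0298 and 0.0686 RPKM in the Ctrl libraries, 1.83, 1.75 and 1.84 in ONC, and 0.517, 0.217 and 0.380 in TPEN. Every ONC library stood above every TPEN library and every TPEN library above every Ctrl library. These values rest on 30 reads in all of Ctrl, 723 in ONC and 132 in TPEN. On the log2(RPKM + 0.1) scale, Cybb was higher in ONC than in Ctrl by 3.46 (SE 0.28, limma adjusted p = 2.24e-05). It was lower in TPEN than in ONC (log2 difference -2.07, SE 0.28, limma adjusted p = 0.00248) and still higher in TPEN than in Ctrl by 1.39 (SE 0.28, limma adjusted p = 0.00987). The added 0.1 RPKM shrinks the difference of so low a gene: the ONC to Ctrl ratio of reads scaled to library size was 22.9.

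Cyba (chr8:122424776-122432930, minus strand) had the highest level of the 6 in every group. It was 0.343, 0.750 and 0.767 RPKM in Ctrl, 2.85, 3.31 and 4.36 in ONC, and 0.963, 1.21 and 1.40 in TPEN. The 3 groups did not overlap, although the highest Ctrl and lowest TPEN libraries were close. The log2 difference was 2.37 between ONC and Ctrl (SE 0.27, limma adjusted p = 0.00022) and -1.47 between TPEN and ONC (SE 0.27, limma adjusted p = 0.0109). Between TPEN and Ctrl it was 0.89 (95% interval 0.29 to 1.50, limma adjusted p = 0.0574) and was not called, the only such case among the 3 members in this fit.

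**Figure D1:**
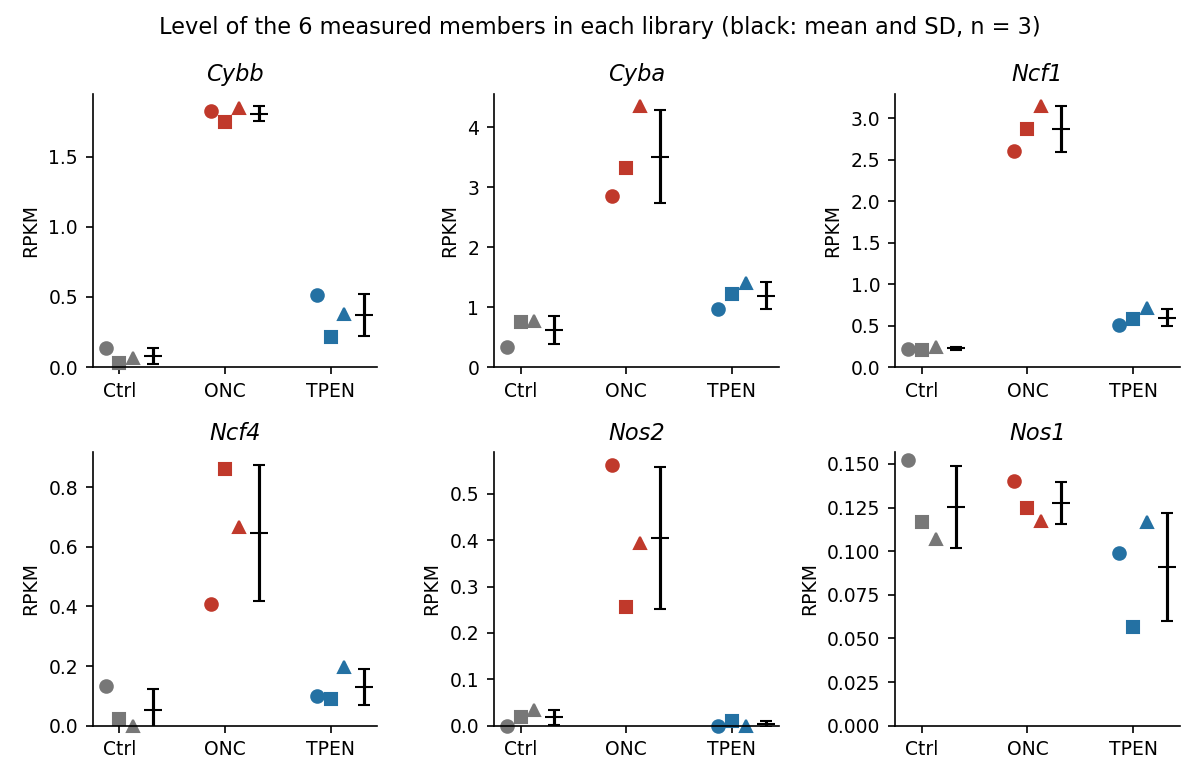
RPKM of each of the 6 measured genes in each library, by group, on linear axes of different height that start at 0. Circles, squares and triangles are replicates 1, 2 and 3, and black bars are the mean and SD (n = 3), cut where they pass below 0. Cybb, Cyba, Ncf1, Ncf4 and Nos2 are highest in ONC, and Nos1 lies between 0.0565 and 0.152 RPKM in all groups.

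Among the cytosolic subunits, Ncf1 (chr5:134220053-134229625, minus strand) had the higher level. It was 0.219, 0.213 and 0.245 RPKM in Ctrl, 2.60, 2.86 and 3.15 in ONC, and 0.505, 0.578 and 0.712 in TPEN. Again no group overlapped another. The log2 difference was 3.19 between ONC and Ctrl (SE 0.15, limma adjusted p = 5.33e-07), -2.10 between TPEN and ONC (SE 0.15, limma adjusted p = 4.25e-05) and 1.09 between TPEN and Ctrl (SE 0.15, limma adjusted p = 0.00104). With a pseudocount of 1 RPKM in place of 0.1, the TPEN to Ctrl difference fell under the 1.5-fold limit for both Ncf1 (0.38) and Cybb (0.34). Of its 3663 exon bases, 408 (11.1%) also belong to Gtf2ird2 on the opposite strand, and the sources do not say whether counting used the strand. Gtf2ird2 itself was 4.68 ± 0.296, 5.25 ± 0.326 and 4.55 ± 0.201 RPKM in Ctrl, ONC and TPEN (SD, n = 3) and was not called in any comparison.

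Ncf4 (chr15:78244801-78262580, plus strand) was lower. It was 0.132, 0.0214 and 0 RPKM in Ctrl, 0.409, 0.862 and 0.668 in ONC, and 0.0990, 0.0891 and 0.198 in TPEN. ONC stood apart from both other groups, which overlapped each other. Its mean was under the limit of 0.5 RPKM set for testing, so it was tested only in a fit without that limit. There the log2 difference was 2.35 between ONC and Ctrl (SE 0.35, limma adjusted p = 0.00102) and -1.69 between TPEN and ONC (SE 0.35, limma adjusted p = 0.0177). The second difference depended on single libraries: the limma adjusted p was 0.0692 without ONC replicate 2, 0.0613 without ONC replicate 3, 0.0607 without TPEN replicate 1 and 0.0609 without TPEN replicate 2. With a pseudocount of 1 it fell under the 1.5-fold limit (-0.54). Between TPEN and Ctrl it was 0.66 (95% interval -0.12 to 1.44) and was not called.

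Of the synthases, Nos2 was found almost only in the ONC libraries. Nos2 (chr11:78920787-78960254, plus strand) was 0, 0.0196 and 0.0339 RPKM in Ctrl, 0.562, 0.257 and 0.395 in ONC, and 0, 0.0102 and 0 in TPEN. It was detected with 26 to 57 reads in each ONC library, with 5 reads in all of Ctrl and with 1 read in all of TPEN. The fit without the limit gave a log2 difference of 2.06 between ONC and Ctrl (SE 0.23, limma adjusted p = 0.000181) and -2.24 between TPEN and ONC (SE 0.23, limma adjusted p = 0.000467). With a pseudocount of 1 RPKM in place of 0.1, both fell under the 1.5-fold limit (0.46 and -0.48). TPEN and Ctrl overlapped (difference -0.18, 95% interval -0.70 to 0.34). In reads scaled to library size the ONC level was 111 times that of TPEN, with a counting interval of 19.5 to 4416, or 9.67 to 2243 if every 2 reads are 1 fragment. Such intervals cover counting error only.

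Nos1 (chr5:117781032-117958840, plus strand) was 0.152, 0.116 and 0.107 RPKM in Ctrl, 0.140, 0.125 and 0.117 in ONC, and 0.0987, 0.0565 and 0.117 in TPEN. Ctrl overlapped both other groups, and the highest TPEN library was just below the lowest ONC library. In the fit without the limit the difference was 0.02 between ONC and Ctrl (95% interval -0.37 to 0.41), -0.27 between TPEN and ONC (-0.66 to 0.13) and -0.25 between TPEN and Ctrl (-0.64 to 0.15), none of them called. The sign of the first is not settled, since it was -0.45 after quantile normalization, which also brought the TPEN to Ctrl difference to -0.62 (limma adjusted p = 0.0481). A stretch of 177 bases of its transcript is identical in Gm26995.

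**Figure D2:**
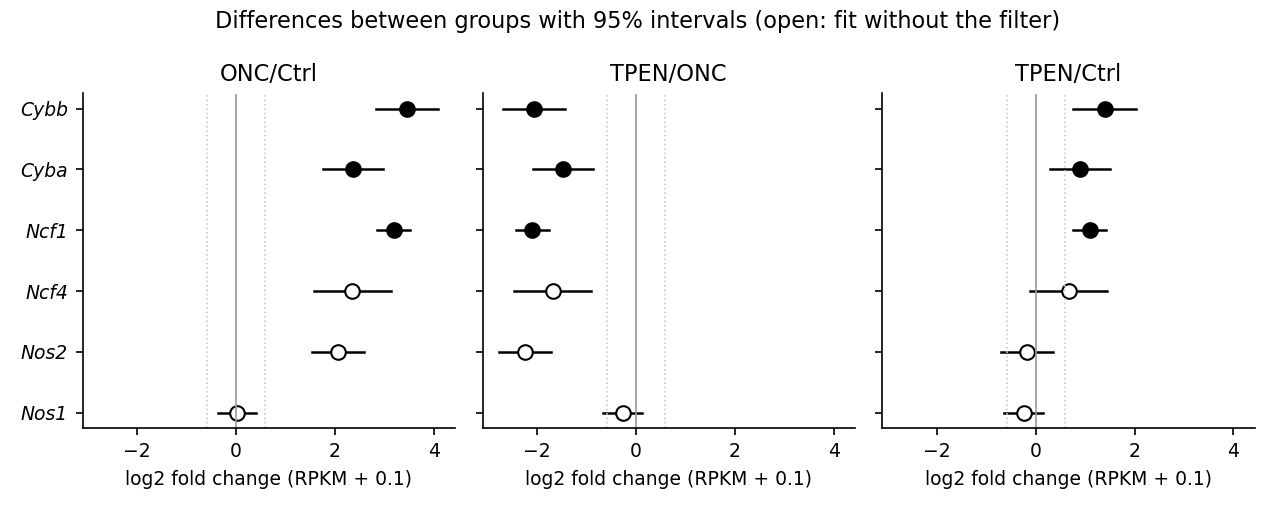
Log2 differences in RPKM + 0.1 between groups (points) with 95% intervals (lines) from limma; filled points are from the fit to genes of at least 0.5 RPKM and open points from the fit to all genes. Dotted lines mark a 1.5-fold change. The 5 genes other than Nos1 lie to the right in ONC/Ctrl and to the left in TPEN/ONC.

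Read against all genes, 4.58% of the 13566 tested genes were called higher in ONC than in Ctrl, 1.21% lower in TPEN than in ONC and 3.45% higher in TPEN than in Ctrl (adjusted p under 0.05 and at least 1.5-fold). Without the limit these shares were 6.19%, 1.85% and 4.5% of 15228 genes. Cybb and Ncf1 passed the limit only through their ONC level, so the number of members called is not support for a shared pattern. Groups failed to overlap for 21.3% of all genes as ONC above Ctrl, 15.6% as TPEN below ONC and 19% as TPEN above Ctrl.

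An exact permutation test over the 280 ways to divide 9 libraries into 3 groups gave p = 0.00357, the smallest it allows, for Cybb, Cyba and Ncf1 (0.00714 after Benjamini-Hochberg adjustment over 6 genes). The same exact permutation test gave p = 0.0107 for Ncf4 (adjusted 0.0161), 0.0143 for Nos2 (adjusted 0.0171) and 0.179 for Nos1. An exact permutation test of 3 libraries against 3 cannot go below p = 0.1.

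By level, the order in ONC was Cyba (3.51 ± 0.774 RPKM), Ncf1 (2.87 ± 0.275), Cybb (1.81 ± 0.0521), Ncf4 (0.646 ± 0.227), Nos2 (0.404 ± 0.153) and Nos1 (0.128 ± 0.0119; SD, n = 3). The neighbours Cyba and Ncf1, and Ncf4 and Nos2, overlapped within their spread. Even at its ONC level Cyba was a moderate transcript, with 54.0% of genes above it. In Ctrl the order was Cyba, Ncf1, Nos1, Cybb, Ncf4 and Nos2, so Nos1 moved from the third place to the last without a called change of its own.

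The subunits were also compared within each library, since they work in one complex. The log2 ratio of Cybb to Cyba was -1.99 ± 0.963 in Ctrl, -0.90 ± 0.293 in ONC and -1.49 ± 0.646 in TPEN (SD, n = 3), with an exact permutation p of 0.232. For Ncf1 to Cybb it was 0.91 ± 0.437, 0.64 ± 0.133 and 0.61 ± 0.576 (exact permutation p = 0.657), and for Ncf1 to Ncf4 1.203 ± 0.679, 2.04 ± 0.394 and 1.63 ± 0.200 (exact permutation p = 0.15). No shift in these ratios passed the test, but that of Ncf1 to Ncf4 did with a pseudocount of 1 (exact permutation p = 0.00357). The added 0.1 RPKM pulls ratios with Cybb together in Ctrl, where Cybb had 4 to 18 reads per library. In reads scaled to library size, the ONC level of Cybb was 22.9 times that of Ctrl (counting interval 15.9 to 34.3). For Cyba it was 5.69 times (4.09 to 8.09). These intervals cover counting error only, and a kept ratio of Cybb to Cyba is not shown. The log2 ratio of Nos2 to Nos1 was -0.94 ± 0.359, 1.10 ± 0.405 and -0.87 ± 0.322, with ONC apart from both other groups (exact permutation p = 0.0321, 0.129 after adjustment over 4 ratios).

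Microglia and macrophage markers were higher in ONC than in Ctrl, as Cybb, Cyba and Ncf1 were. All 3 of these members were called lower in TPEN than in ONC, and Cyba was not called in TPEN/Ctrl (limma adjusted p = 0.0574). Cybb and Ncf1 passed the limit only through their ONC level. Counts of calls depend on the threshold, and no difference between members and markers was tested. All 12 of these markers that passed the limit were called higher in ONC than in Ctrl (median log2 difference 2.76), against 4.58% of all genes tested. Of the 12, 6 were called lower in TPEN than in ONC (median -0.85), against 1.21%. The 12 differences ran from -2.09 to -0.47, and C1qb just missed the call (-0.86, limma adjusted p = 0.0536). All 12 were called higher in TPEN than in Ctrl (median 1.93), against 3.45%. Tmem119 and Trem2 passed the limit only through their ONC level, as did the neutrophil marker Csf3r. The medians over all genes tested were 0.02, -0.01 and 0.01. Lyz2, the lysozyme of macrophages and the highest of them by the mean of all 9 libraries, was 0.534 ± 0.113 RPKM in Ctrl, 19.3 ± 1.16 in ONC and 4.48 ± 0.569 in TPEN (SD, n = 3). Csf3r, the 1 neutrophil marker found of 8, was 0.180 ± 0.0503, 1.04 ± 0.0805 and 0.3601 ± 0.136 RPKM in Ctrl, ONC and TPEN (SD, n = 3), called higher in ONC than in Ctrl (2.04) and lower in TPEN than in ONC (-1.35). All 5 cone markers were called higher in TPEN than in ONC (median 0.78), against 0.818% of all genes tested, and none was called in ONC/Ctrl. The sort also selected against a surface marker of leukocytes, and how far it removed such cells was not tested. The part of any of these cells in the members' changes was not tested.

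Per 100 RPKM of the summed marker list, a scale chosen after the data were seen, Ncf1 was 4.24 ± 0.324 in Ctrl, 4.47 ± 0.361 in ONC and 2.12 ± 0.351 in TPEN (SD, n = 3). Ctrl and ONC overlapped on that scale, and TPEN lay below both. Cybb was 2.79 to 2.86 in ONC and 0.779 to 1.83 in TPEN, without overlap, while its Ctrl values spread from 0.545 to 2.86. Cyba was 7.10 to 13.7 in Ctrl, above 4.46 to 6.60 in ONC, and TPEN (3.41 to 4.89) overlapped ONC. Nos2 was 0.410 to 0.880 in ONC and at most 0.0366 in TPEN, and its Ctrl values, 0 to 0.593, overlapped both. Ncf4 was 0 to 2.74 in Ctrl, 0.640 to 1.38 in ONC and 0.320 to 0.694 in TPEN, and all 3 groups overlapped.

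**Figure D3:**
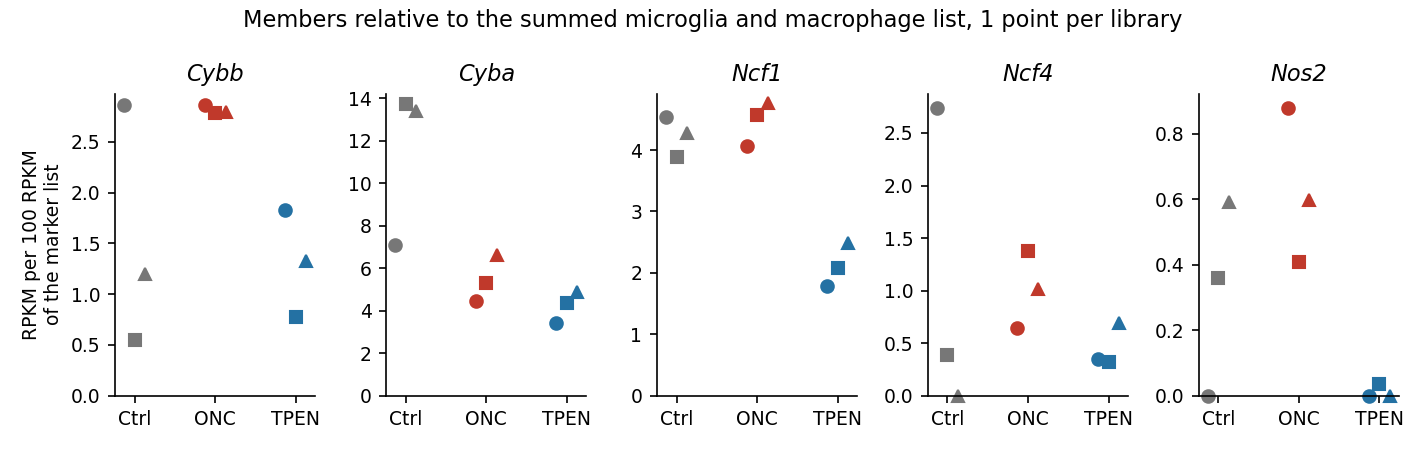
RPKM of 5 genes per 100 RPKM of the summed 14 microglia and macrophage markers, 1 point per library, on linear axes that start at 0. Circles, squares and triangles are replicates 1, 2 and 3. For Ncf1 the Ctrl and ONC libraries overlap (3.89 to 4.77) and the TPEN libraries lie at 1.79 to 2.49.

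Of the oxidase's other partners, Rac1, a GTPase that most cells use, was 5.28 ± 0.516, 6.06 ± 0.208 and 5.78 ± 0.205 RPKM in Ctrl, ONC and TPEN (SD, n = 3) and was not called, and neither were the other 3 partners that passed the limit. Of all tested genes, 4.58% were called higher in ONC than in Ctrl. Exons of Rac1 overlap Daglb. Rac2 was not analysed here.

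Of 5 tested genes for signals that switch the oxidase on, 3 were called higher in ONC than in Ctrl, where 4.58% of all genes were, but Vav1 and Pik3r5 passed the limit only through their ONC level. These were Vav1, an exchange factor for Rac (log2 difference 3.24), Pik3r5, a regulatory subunit of PI3K gamma (1.74), and Prkcd, a kinase of p47phox (1.25). Vav1 (-1.26) and Pik3r5 (-1.17) were called lower in TPEN than in ONC, and Prkcd was not (-0.36). Syk, a kinase below phagocytic receptors, was under the limit at 0.0230 ± 0.0200, 0.651 ± 0.133 and 0.134 ± 0.0352 RPKM in Ctrl, ONC and TPEN (SD, n = 3). The fit without the limit called Syk higher in ONC than in Ctrl (2.61) and lower in TPEN than in ONC (-1.68). It called Pik3cd, the PI3K delta catalytic subunit, higher in ONC than in Ctrl (1.28) but not lower in TPEN than in ONC (-0.38). In that fit 6.19% of all genes were called higher in ONC than in Ctrl and 1.85% lower in TPEN than in ONC. Vav1 (1.98) and Prkcd (0.89) were called higher in TPEN than in Ctrl, against 3.45% of genes tested, and Pik3r5 was not (0.57). Without the limit Syk (0.93) and Pik3cd (0.90) were called higher there too, against 4.5%.

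Other genes of superoxide biology were read in the same way. Neither of the 2 tested genes of other NOX and DUOX enzymes, Noxo1 and Poldip2, was called, and Nox1, Nox3, Duox1 and Duox2 were not analysed here. Of 14 genes that remove superoxide and peroxide, 1 was called, the thioredoxin gene Txn1, higher in ONC than in Ctrl by 0.68. As 4.58% of all tested genes were called higher there, this count is not a result about the list. Gpx1 (0.55), Prdx1 (0.42), Prdx6 (0.39) and Txnrd1 (0.39) were higher in ONC at limma adjusted p under 0.05 but under the 1.5-fold limit. The list median was 0.22, against 0.02 for all genes tested. Xdh, the xanthine oxidoreductase that is another source of superoxide, was under the limit at 0.0255 ± 0.0221, 0.430 ± 0.0725 and 0.0575 ± 0.0464 RPKM in Ctrl, ONC and TPEN (SD, n = 3). In the fit without the limit it was called higher in ONC than in Ctrl (2.09) and lower in TPEN than in ONC (-1.78).

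For the synthases, none of 7 tested cofactor and regulator genes was called in any comparison. Among them was the endothelial synthase Nos3 at 2.01 ± 0.135, 1.75 ± 0.256 and 2.25 ± 0.139 RPKM in Ctrl, ONC and TPEN (SD, n = 3). Its exons overlap Gm15587. Ddah1 was higher in ONC than in Ctrl by 0.55 (limma adjusted p = 0.000493), under the 1.5-fold limit. None of 3 nitric oxide receptor and cGMP genes was called either. With 4.58% of all tested genes called higher in ONC than in Ctrl, 1.21% lower in TPEN than in ONC and 3.45% higher in TPEN than in Ctrl, such counts are not a result about these lists. Arginine is the substrate that nitric oxide synthases share with arginase. Arg1, the arginase of alternatively activated macrophages, was 0.278 ± 0.0496 RPKM in Ctrl, 39.1 ± 0.235 in ONC and 1.04 ± 0.0889 in TPEN. It was called in all 3 comparisons (log2 difference 6.70, -5.10 and 1.60 for ONC/Ctrl, TPEN/ONC and TPEN/Ctrl). Slc7a1, a carrier that imports arginine, was called higher in ONC than in Ctrl by 0.61. These were 2 of 6 tested genes of arginine supply and use, and the other 4 were not called there. The list median in ONC/Ctrl was 0.07, against 0.02 for all genes tested.

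**Figure D4:**
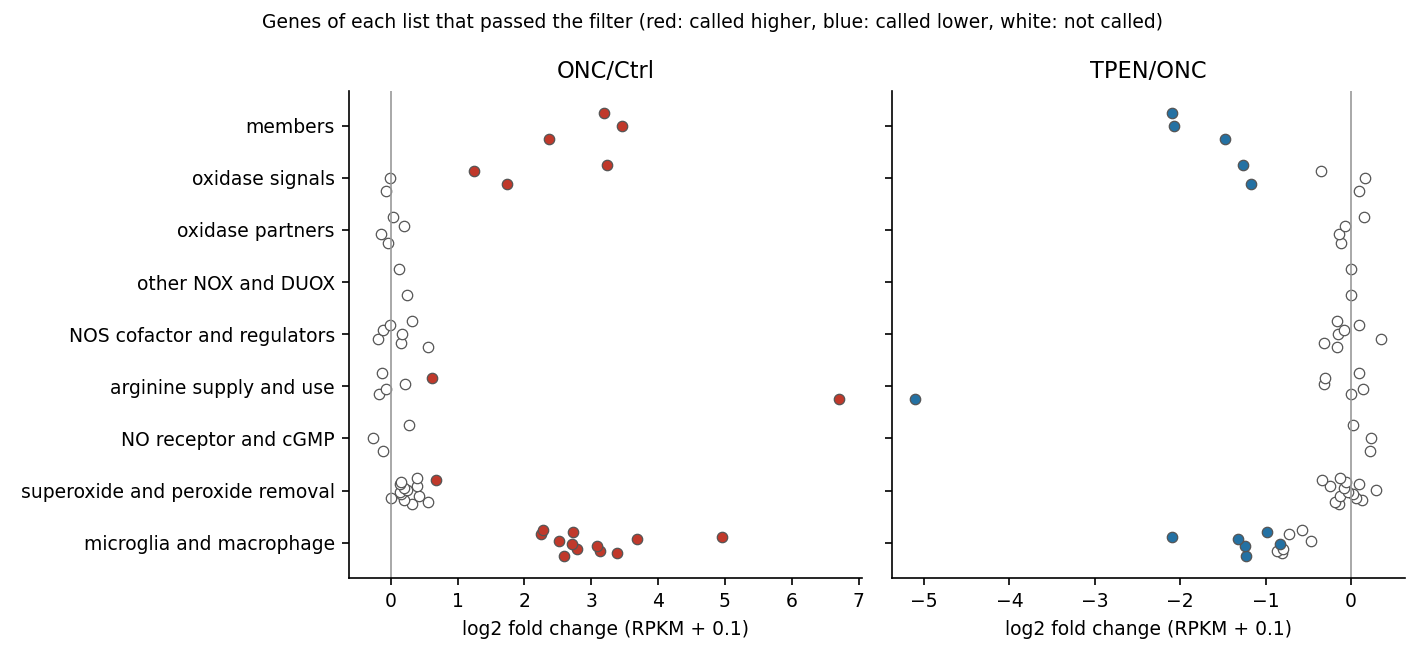
Log2 differences in RPKM + 0.1 for each gene of the lists that passed the limit of 0.5 RPKM, in ONC/Ctrl (left) and TPEN/ONC (right), 1 point per gene. Red points were called higher, blue points lower and white points were not called. The members, 3 signal genes, Arg1 and the microglia and macrophage list lie to the right in ONC/Ctrl.

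Across the 9 libraries, the genes most like Cybb were Apobr, Pik3ap1, Ncf1, Isg15 and Fn1, with root mean square differences in centred log2(RPKM + 0.1) of 0.296 to 0.402 against a median of 1.45 over 12143 genes of at least 1 RPKM. Cyba was at 0.719 and Ncf4 at 0.602 on that measure. The genes nearest to Cybb reached a mean of 1 RPKM only through their ONC level, so their likeness is not support for a shared pattern. The median of 1.45 also reflects how far Cybb itself moved. For Nos1 the nearest were Cdc27, Gm45355, Tbc1d2b, Gm38327 and Smim1 (0.0768 to 0.09997, median 0.223), at levels of about 1 RPKM and above.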

How the data were processed

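Cells were sorted by flow cytometry as CD90.2-positive cells lacking 3 other surface markers, and stranded mRNA libraries with molecular identifiers were sequenced. Per the labels the reads were trimmed with Trimmomatic 0.36, and the study's methods give alignment to GRCm38 with STAR and testing with edgeR. The deposited values are RPKM per gene, made by the authors. The counting program, its use of strand and the use of the identifiers are not given in the sources used here. The authors' 9 comparison columns (fold changes, p-values and FDR) were not used.

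RPKM times exon length came out as whole reads for 100% of values (within 0.01), which gave the depth per library. Of these read numbers, 66.2% of those from 1 to 9 were even, against 49.8% from 3000 up, so counting intervals may be too narrow. The 3 comparisons were fitted with limma 3.58.1 (R 4.3.3) with a variance trend on log2(RPKM + 0.1) over all 9 libraries and genes of mean RPKM of at least 0.5, with Benjamini-Hochberg adjustment over all genes tested. Calls took the study's thresholds, an adjusted p under 0.05 with a change of 1.5-fold or more. Genes under the limit were read from a fit to all genes, whose use for list genes was chosen after the data were seen. Single genes and ratios were tested with exact permutation tests, of the F ratio over 3 groups and two-sided for pairs. The fit was tested on simulated data. Members and lists were chosen with earlier results of these data known. Named genes were mainly the members, the list genes called in any comparison, a fixed set of partners, and the 5 genes most like Cybb and Nos1.

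Gene positions are those of the deposited table, and promoters come from RefSeq (5 of 7 genes matched). A blastn 2.17.0 search of the transcripts at 95% identity over at least 100 bases found Gtf2ird2 for Ncf1 and Gm26995 for Nos1, and no other gene. Of the partner list, 1 gene is not reported here.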

Additional observations from a re-analysis of the deposited data

How the results depend on the processing

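Alternatives for Ncf4, Nos1 and Nos2 were added after the data were seen. For Cybb, Cyba and Ncf1, the ONC/Ctrl and TPEN/ONC calls held under every alternative run: a pseudocount of 1, no limit on low genes, a limit of 1 RPKM, quantile normalization, the 6 libraries compared alone, the replicate block, voom on whole reads, and leaving out each library, except that Cybb was not tested at a limit of 1 RPKM. With a pseudocount of 1, TPEN/Ctrl fell under the 1.5-fold limit for Cybb (0.34) and Ncf1 (0.38), as did Ncf4 in TPEN/ONC (-0.54) and Nos2 in ONC/Ctrl (0.46) and TPEN/ONC (-0.48). Leaving out 1 library, Ncf4 in TPEN/ONC ranged from -1.94 to -1.48, and Nos1 in ONC/Ctrl from -0.039 to 0.10. For Nos1, leaving out 3 of the 6 libraries compared, 1 at a time, turned the sign (-0.0077, -0.022 and -0.039). Leaving out a TPEN library could not change that estimate. After quantile normalization Nos1 was -0.45 in ONC/Ctrl, -0.62 in TPEN/Ctrl (limma adjusted p = 0.0481), and its exact permutation p across the groups was 0.0143 (0.0429 to 0.45 leaving out 1 library). The Ncf1 to Ncf4 ratio gave an exact permutation p of 0.00357 with a pseudocount of 1, 0.0286 after quantile normalization and 0.0179 to 0.379 leaving out 1 library. The causes were not tested.

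Replicate numbers did not pair the libraries (correlation of deviations -0.06 to 0.03 over 9 pairs). With the replicate block, Cyba in TPEN/Ctrl (0.89) was called at a limma adjusted p of 0.0116, and the block changed no other call among the members.

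Genes called higher in ONC than in Ctrl numbered 622, or 943 without the limit. Genes called lower there numbered 102, or 31 with a pseudocount of 1 and 193 after quantile normalization, which left 530 higher. For TPEN/ONC, 111 were higher (39 with a pseudocount of 1) and 164 lower (281 without the limit, 105 at 1 RPKM). For TPEN/Ctrl, 468 were higher (247 with a pseudocount of 1) and 62 lower (34 with a pseudocount of 1, 102 after quantile normalization).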
